A study of Mus musculus with 6 samples.

Results

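Pclaf, Impact and Riok3 are 3 mouse genes whose probe sets gave unlike differences between wild type and Setd2 knockout embryonic stem cells. A probe set is a group of short probes on the array that reports 1 signal, and a gene can have several. All probe sets annotated to these genes were taken, 10 in number (3 for Pclaf, 3 for Impact, 4 for Riok3), out of 45037 on the array, and the 3 genes are among 18193 that a probe set named alone. The genes were selected on the genotype differences measured on these same arrays: their probe sets pointed in different directions or differed greatly in size. Their genotype differences are therefore given as a description, without p-values.

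Pclaf, also written 2810417H13Rik, encodes the PCNA clamp associated factor. PCNA is the ring that holds DNA polymerases on the template during replication, and Pclaf binds it and takes part in replication past damaged DNA. Proliferating cells, embryonic stem cells among them, make much of it in S phase. Impact encodes a protein that binds Gcn1 and so restrains Gcn2, the kinase that lowers protein synthesis when amino acids are scarce. In the mouse it is an imprinted gene expressed from the paternal copy. Riok3 encodes an atypical kinase of the RIO family, which takes part in the maturation of the small ribosomal subunit and in innate immune signalling.

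The arrays held total RNA from mouse embryonic stem cells of strain 129SV/C57BL/6, either wild type (3 arrays) or knocked out for Setd2 (3 arrays), with no treatment, and the labels call the arrays of a genotype biological repeats. Setd2 is the methyltransferase that places the trimethyl mark on lysine 36 of histone H3 (H3K36me3) along transcribed genes. Both genotypes were grown on feeder cells, which were then depleted by settling on gelatin and 1 passage without feeders. The labels name neither the deleted part of Setd2 nor how many clones were used, and age and sex of the source embryos are not given in the sources used here. Values are log2 MAS5 signals, so a difference of 1 is a doubling of signal.

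The Setd2 probe set was lower in knockout cells, at 9.49 ± 0.12 against 10.30 ± 0.01 (mean ± SD over 3 arrays; limma adjusted p = 0.0272, and 0.000744 with the replicate number as a block). Its call was lost without any array except knockout replicate 1 (adjusted p up to 0.212). Over all 27022 probe sets bright enough to be tested, 74 were higher and 101 lower in knockout cells at a limma adjusted p under 0.05, and 944 (3.49%) and 1185 (4.39%) with the replicate block. These 175 calls became 99, 46 and 33 without wild type replicate 1, 2 and 3, and 437, 43 and 36 without knockout replicate 1, 2 and 3. Of 15 embryonic stem cell markers, all tested, 0 passed in either direction (1 at an unadjusted p under 0.05, and 1, Klf2 on chromosome 8, lower with the block). Their mean was 12.69, 12.61 and 12.65 on wild type arrays 1, 2 and 3. On knockout arrays 1, 2 and 3 it was slightly lower, at 12.57, 12.50 and 12.59, with 10 markers lower and 5 higher. Of 26 tested feeder fibroblast markers 0 passed (3 at an unadjusted p under 0.05), with 2 higher and 1 lower with the block. Both lists took each gene at its brightest tested probe set. Over all 12915 genes taken in this way, 0.256% rose and 0.48% fell past the threshold in limma. An unadjusted p under 0.05 was reached by 13.4% of them, and with the block 4.13% rose and 5.75% fell. Array 1 of wild type and array 1 of knockout had the lowest feeder marker means, 8.07 and 7.96, against 8.60 to 8.96 elsewhere. Of 1242 tested probe sets of chromosome 8, 32 were lower and 0 higher in knockout cells, with a median difference of -0.34, and of 5 on chromosome Y 4 were higher. An effect of the Setd2 genotype and an effect of the cell line cannot be told apart here. In bulk RNA, fewer cells expressing a gene and less RNA per cell cannot be told apart either.

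Of the 10 member probe sets, 8 were bright enough to be tested, with a mean over the 6 arrays at or above the filter value of 5.27. Of these 8, 5 lay past the threshold, 2 higher and 3 lower in knockout cells, where 0.648% of all tested probe sets did so in either direction. This contrast chose the members, so nothing is read from that count. The ending of a probe set name gives its type. Probe sets ending in _at were designed to be unique, those in _a_at match several transcripts of 1 gene, and those in _s_at hold probes shared between transcripts, which can belong to different genes. The annotation also names a sequence record for each probe set, called its source sequence here. Probe sequences were not among the sources used here, so a shared source sequence means only that the same record is named.

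**Figure D1:**
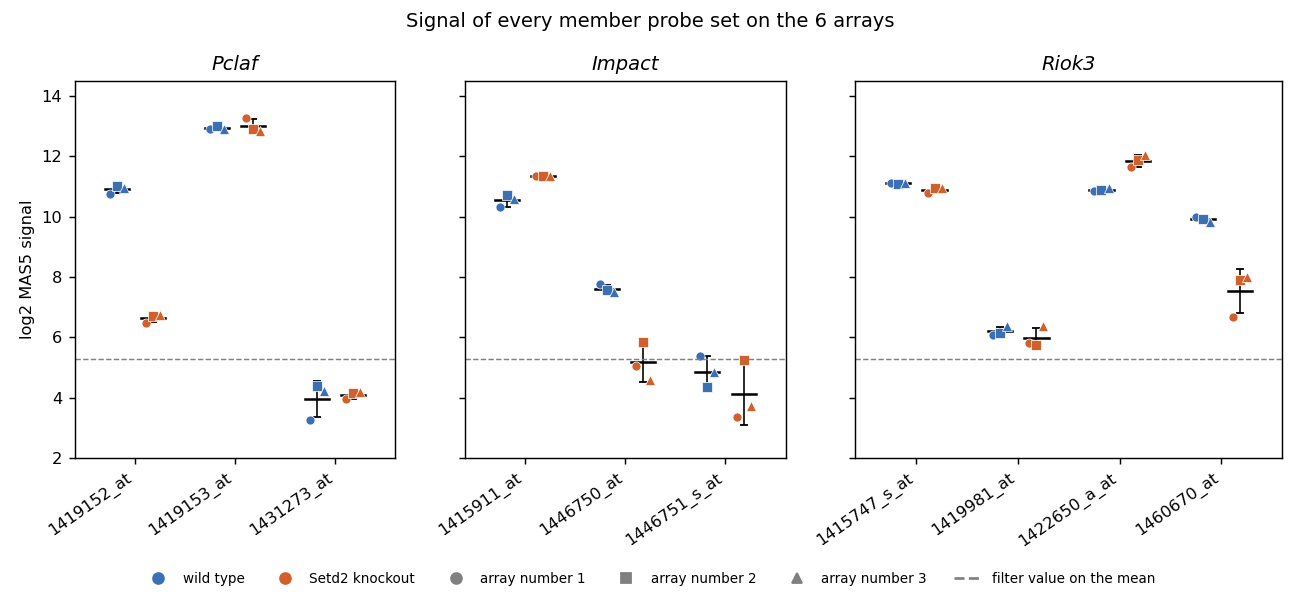
Log2 MAS5 signal of the 10 probe sets of Pclaf, Impact and Riok3 on each of the 6 arrays, with marker shape for the array number, horizontal bars for the mean and error bars for the SD over 3 arrays. Pclaf 1419152_at stands between 10.75 and 11.03 in wild type and between 6.47 and 6.73 in knockout cells, while Pclaf 1419153_at overlaps between the genotypes.

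Pclaf gave a very large difference on 1 probe set and none past the threshold on another of the same source sequence. On wild type arrays 1, 2 and 3 probe set 1419152_at read 10.75, 11.03 and 10.97, and on knockout arrays 1, 2 and 3 it read 6.47, 6.72 and 6.73. The genotypes lay 4.02 apart at their closest, many times the SD of each genotype, 0.14 for wild type and 0.15 for knockout. The signal was 19.4-fold lower in knockout cells, a difference of -4.28 ± 0.15 (SE) on the log2 scale, with a 95% interval of -4.63 to -3.92. Within arrays of the same number the difference was -4.29, -4.31 and -4.23. On the linear scale the wild type signals ran from 1724 to 2088 and the knockout signals from 88.4 to 106, and the knockout mean of 6.64 still lay above the filter value.

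Pclaf 1419153_at, an _at probe set like the one before, gave 12.91, 13.02 and 12.92 on the wild type arrays and 13.27, 12.92 and 12.84 on the knockout arrays. The highest and the lowest of these 6 values both came from knockout arrays, so the genotypes overlapped. The difference was 0.06 ± 0.11 (SE), with an interval of -0.20 to 0.32. Its mean over all arrays, 12.98, lay at the 97.8th percentile of all probe sets on the array. The difference within number 1 was 0.36, and -0.10 and -0.08 within numbers 2 and 3. Knockout array 1, the highest of the 6, also had the lowest feeder marker mean, and the part of feeder RNA in this value was not tested.

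The third Pclaf probe set, 1431273_at, has a different source sequence and was too dim to be tested. Its wild type values were 3.26, 4.39 and 4.21 and its knockout values 3.94, 4.15 and 4.18, with the knockout values inside the wild type range. The RefSeq table lists 1 curated transcript for Pclaf and no other, and the annotation used here does not give the place of the probes on it.

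The genes that work with Pclaf at the replication fork were taken as a list of 53, of which 51 were tested, each at its brightest tested probe set. In limma 0 of the 51 passed, where 0.256% of all 12915 genes taken in this way rose and 0.48% fell. An unadjusted p under 0.05 was reached by 17 of the 51, against 13.4% of all genes. With the array number as a block 2 members rose and 8 fell, where 4.13% of all genes rose and 5.75% fell. The median difference of the list was -0.10, against -0.00056 over all genes, and became -0.05 without knockout replicate 2. Leaving out genes on chromosomes 8 and Y brought it to -0.048. Of the 8 falls, 4 lie on chromosome 8 (Cdt1, Gins2, Gins3 and Mcm5), where the median difference was -0.34 and 270 of 709 genes fell with the block and 0 rose. The part of that chromosome's shift in the list was not tested beyond these values. Pcna itself, the clamp, differed by -0.12 (95% interval -0.27 to 0.03; limma adjusted p = 0.546, and 0.250 with the block). The other bright members were subunits of the replicative helicase. Mcm7 differed by -0.03 (-0.16 to 0.10; limma adjusted p = 0.885), and Mcm5, on chromosome 8, by -0.21 (-0.37 to -0.05; limma adjusted p = 0.273, and 0.0352 with the block).

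The members past the threshold with the block, which were singled out after their values were seen, moved by far less than Pclaf 1419152_at. That probe set is not the brightest of Pclaf, whereas the list took each gene at its brightest. At its brightest, 1419153_at, Pclaf differed by 0.06, less than any of these members. The helicase gene Mcm6 differed by -0.40, and on chromosome 8 the licensing factor gene Cdt1 differed by -0.31 and Gins2 and Gins3, which encode subunits of the GINS complex, by -0.48 each, with limma adjusted p of 0.00714, 0.0115, 0.00884 and 0.0405 in that fit. The fork protection genes Timeless and Tipin differed by -0.35 and -0.26 and the deubiquitinase gene Usp1, which acts on PCNA, by -0.29. Those that rose were Cdkn1a, the p21 gene, at 0.56, and Mcm4 at 0.38.

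Impact gave a higher signal in knockout cells on its brightest probe set and a lower one on a dimmer probe set with another source sequence. For 1415911_at the wild type arrays read 10.31, 10.73 and 10.59 and the knockout arrays 11.34, 11.36 and 11.35. The genotypes did not overlap and the knockout arrays were the higher ones, with a gap of 0.61 between the groups. The signal was 1.75-fold higher, a difference of 0.80 ± 0.13 (SE) with an interval of 0.52 to 1.09. The 3 knockout values were nearly the same, with an SD of 0.01, while the wild type SD was 0.21. Among tested probe sets whose knockout mean lay within 0.5 of this one, 1.01% had an SD as small or smaller.

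For Impact 1446750_at the wild type arrays read 7.75, 7.55 and 7.52 and the knockout arrays 5.06, 5.85 and 4.59. Here the knockout arrays were the lower ones, each by at least 1.67. The signal was 5.43-fold lower, a difference of -2.44 ± 0.34 (SE) with an interval of -3.21 to -1.67. The knockout mean of 5.16 lay below the filter value of 5.27, so the size of this fold rests on dim signals. With values under the 40th percentile of all values raised to it (5.44), the difference was -2.03.

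The remaining Impact probe set, 1446751_s_at, shares its source sequence with 1446750_at and was too dim to be tested. Its values were 5.37, 4.34 and 4.85 on the wild type arrays and 3.35, 5.26 and 3.73 on the knockout arrays. The genotypes overlapped, and the difference of -0.74 had an interval of -2.19 to 0.71. Within the array numbers it was -2.01, 0.91 and -1.12. RefSeq lists 2 curated and 1 predicted mRNA for Impact and 1 predicted noncoding transcript.

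**Figure D2:**
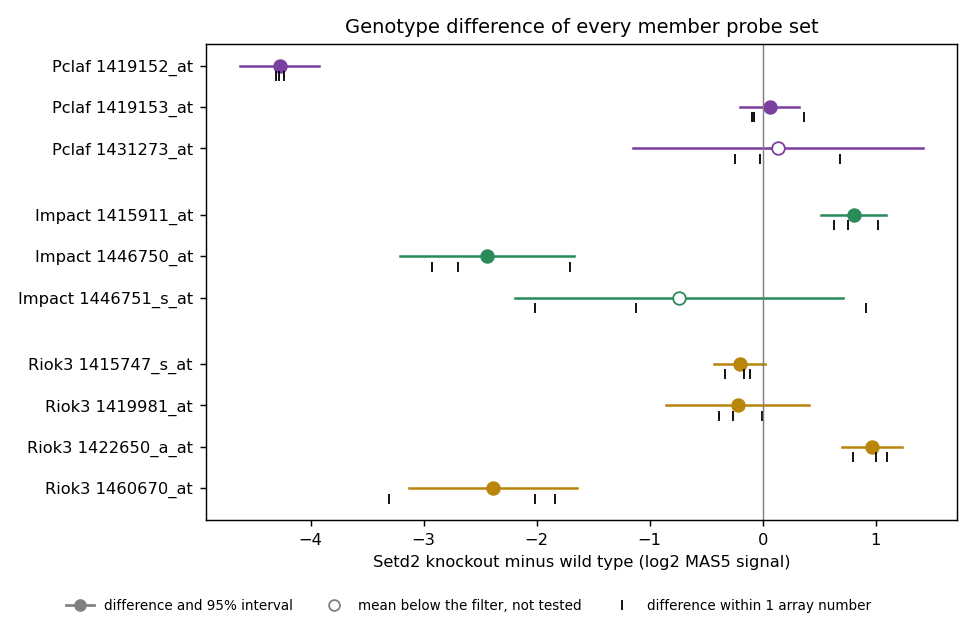
Knockout minus wild type difference in log2 MAS5 signal for each member probe set, with 95% intervals from limma and ticks for the difference within each array number. Impact and Riok3 each have 1 probe set to the right of 0 (0.80 and 0.97) and 1 far to the left (-2.44 and -2.39), and Pclaf has 1 at -4.28 beside 1 at 0.06.

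The genes of the Gcn2 pathway and of the integrated stress response that it feeds were followed as a list of 46, of which 43 were tested. In limma 0 of the 43 passed, and 7 had an unadjusted p under 0.05, where 13.4% of all genes did. The median difference was -0.01, between -0.08 and 0.01 with single arrays left out, and blocking on the array number gave 1 rise and 4 falls, where 4.13% of all genes rose and 5.75% fell in that fit. Eif2ak4, the Gcn2 gene, differed by 0.15 (95% interval -0.41 to 0.70; limma adjusted p = 0.884) and Gcn1, whose product binds both Gcn2 and Impact, by 0.15 (-0.16 to 0.46; limma adjusted p = 0.754). Of the brightest members, Atf4, the transcription factor that is translated when Gcn2 is active, differed by -0.13, the serine synthesis gene Phgdh by -0.11 and the glycyl-tRNA synthetase gene Gars by -0.06. With the block Ppp1r15b, which encodes a subunit of the phosphatase that reverses Gcn2's mark, rose by 0.38. In that fit the alanyl-tRNA synthetase gene Aars fell by 0.50, the folate enzyme genes Mthfd2 and Shmt2 by 0.49 and 0.31, and Drg1 by 0.31. Aars lies on chromosome 8, with its median of -0.34, and missed the threshold without the block at a limma adjusted p of 0.0577.

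Riok3 had all of its 4 probe sets tested, and they gave a higher signal, a much lower one, and a pair of small differences. On 1422650_a_at the wild type arrays read 10.85, 10.87 and 10.94 and the knockout arrays 11.65, 11.87 and 12.03. The groups lay 0.71 apart. The signal was 1.96-fold higher in knockout cells, a difference of 0.97 ± 0.12 (SE) with an interval of 0.70 to 1.23.

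Riok3 1460670_at, which shares its source sequence with 1422650_a_at, gave 9.997, 9.92 and 9.83 on the wild type arrays and 6.69, 7.90 and 8.001 on the knockout arrays. The knockout arrays lay at least 1.83 below the wild type ones, and knockout array 1 lay lowest. The signal was 5.23-fold lower, a difference of -2.39 ± 0.32 (SE) with an interval of -3.13 to -1.65. Within arrays numbered 1, 2 and 3 the difference was -3.31, -2.02 and -1.83. The wild type SD was 0.08 and the knockout SD 0.73, and 95.1% of tested probe sets of like knockout level had an SD no larger. Both knockout and wild type signals lay well above the filter value. Knockout array 1 had the lowest feeder marker mean of the 6 arrays, and the part of feeder RNA in its low value was not tested.

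The other Riok3 probe sets share a source sequence of their own. On 1415747_s_at wild type arrays read 11.12, 11.07 and 11.13 and knockout arrays 10.79, 10.96 and 10.96, with the knockout arrays below the wild type arrays by as little as 0.11. The difference was -0.20 with an interval of -0.43 to 0.02. On 1419981_at, a dim probe set, wild type arrays read 6.08, 6.13 and 6.37 and knockout arrays 5.81, 5.74 and 6.36. The genotypes overlapped there, and the probe set differed by -0.22 (-0.85 to 0.41). RefSeq lists 1 curated mRNA for Riok3 and 4 predicted noncoding transcripts.

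The other RIO kinase genes and the factors that mature the small ribosomal subunit formed a list of 43, all tested. In limma 0 of them passed, and 2 had an unadjusted p under 0.05, against 13.4% of all genes. The median difference was -0.01. At its brightest tested probe set, Riok1 differed by -0.20 (95% interval -0.46 to 0.07; limma adjusted p = 0.586) and Riok2 by -0.01 (-0.41 to 0.39; limma adjusted p = 0.992). At these probe sets neither paralog showed a difference of the size seen on Riok3 1460670_at, which is not the brightest of Riok3. At its brightest, 1422650_a_at, Riok3 differed by 0.97, and at 1415747_s_at by -0.20. Riok1 had 5 tested probe sets, whose differences spanned 1.07 from lowest to highest. The brightest members, Clns1a, a partner of the Prmt5 methyltransferase, Bms1, a GTPase of the small subunit processome, and Fbl, the fibrillarin gene, differed by -0.04, -0.03 and -0.03. The array number as a block gave 0 rises and 2 falls, Imp4 by 0.56 and Nob1, which encodes the nuclease that trims the 18S precursor, by 0.59, beside 4.13% and 5.75% over all genes. Nob1 is on chromosome 8, where the median difference was -0.34.

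Across the array, few genes had calls in both directions, and few had several calls at all. At least 2 tested probe sets were available for 5911 genes, of which 83 had a probe set past the threshold. Only 15 had 2 or more past it, and only these could show calls in both directions. In 81 of the 5911 genes, Riok3 and Impact among them, the groups did not overlap at a probe set in each direction. Taken singly, 18.1% of all tested probe sets had groups that did not overlap. Calls in both directions were found in 2 genes, 0.0338% of the 5911, and these were Riok3 and Impact. Impact entered this count, and has its spread, through 1446750_at, which passed the filter by its wild type arrays. Its means were 7.61 in wild type and 5.16 in knockout cells, against a filter value of 5.27. With the replicate block the number was 13 (0.22%). Riok3 and Impact were among the 13, and the other 11 included C1qtnf12, Kif5b and Mapk8, named for the widest spread among them. The spread of a gene was measured as the highest minus the lowest difference among its tested probe sets. Its median over the 5911 genes was 0.25 and its 99th percentile 1.47. It was 4.34 for Pclaf, 3.35 for Riok3 and 3.25 for Impact, which placed them at ranks 1, 3 and 4 of the 5911. Among the 1043 genes with at least 4 tested probe sets, as Riok3 has, the median was 0.45 and Riok3 had rank 1. The members had been chosen for this spread, so the ranks describe the choice.

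The genes next to them in that order were looked at after their values were seen. Imp4, which encodes a factor of the small subunit processome, ranked in place 2 with a spread of 3.36. Its probe set 1426214_at gave 7.46, 8.17 and 8.39 on wild type arrays and 2.67, 6.04 and 5.08 on knockout arrays, a difference of -3.41 ± 0.76 (SE; limma adjusted p = 0.110, and 0.00109 with the block). Another Imp4 probe set, 1455723_at, differed by -0.05. C1qtnf12, which encodes a secreted C1q family protein, ranked in place 5 with a spread of 3.21, from -1.45 to 1.77. The upper of these values rests on a dim probe set with a wild type mean of 4.50. Genes with a spread of at least 3 numbered 5 in all (0.0846% of the 5911), the members among them.

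**Figure D3:**
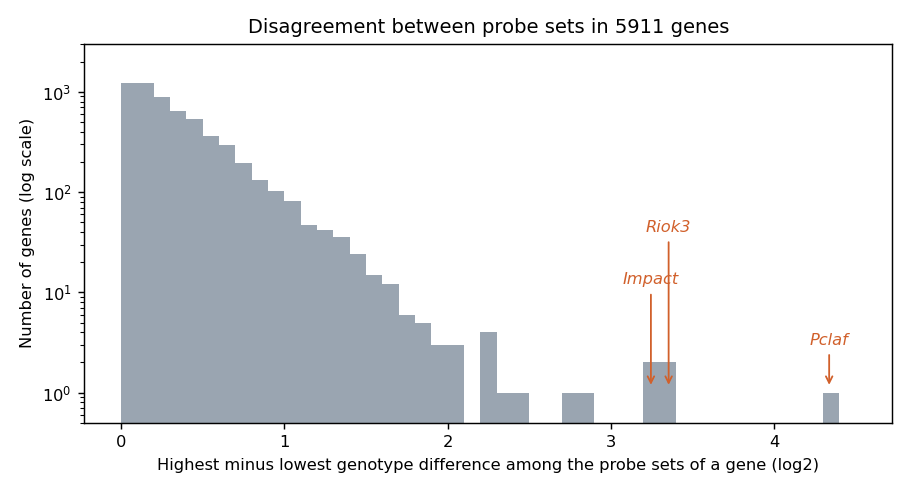
Histogram of the spread between probe sets (highest minus lowest knockout minus wild type difference, log2) over 5911 genes with at least 2 tested probe sets, with the number of genes on a log axis. Pclaf stands alone at 4.34, and Riok3 (3.35) and Impact (3.25) lie with Imp4 and C1qtnf12, beyond the 99th percentile of 1.47.

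The source sequences gave a further view of the same spread. Pairs of tested probe sets of 1 gene numbered 3649 with a shared source sequence and 13490 with different ones. The median gap between their differences was 0.14 and 0.19, and the 99th percentile 1.07 and 1.36. Among the pairs with a shared source, Pclaf 1419152_at with 1419153_at had the widest gap of all, and Riok3 1422650_a_at with 1460670_at the second widest. They were the only pairs of that class with a gap of at least 3. The other shared-source pair of Riok3, 1415747_s_at with 1419981_at, differed by 0.02, place 3405 of 3649. The pair of Impact, with different source sequences, held place 2 of 13490. The members had been chosen for unlike differences between their probe sets, so these places describe the choice.

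The types of the member probe sets were compared with those of the array. Of the 5 member probe sets past the threshold, 4 end in _at and 1 in _a_at. Most tested probe sets on the array, 20085 of 27022, also end in _at. Over the array the share past the threshold was 0.647% of 20085 tested _at probe sets, 0.595% of 3532 _a_at, 0.832% of 1682 _s_at and 0.580% of 1723 _x_at. Each of the 3 probe sets with a large lower signal (Pclaf 1419152_at, Impact 1446750_at and Riok3 1460670_at) was of the unique type, as was 1 of the pair with a higher signal. With most tested probe sets of that type, nothing is read from these counts. The SD of the differences was 0.41 over the _at type and between 0.34 and 0.38 over the other types. At least 4-fold differences in either direction were seen at 54 of the 20085 tested _at probe sets, 4 of 3532 _a_at, 5 of 1682 _s_at and 2 of 1723 _x_at.

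Impact and Riok3 are close to each other on chromosome 18, with 7 other named coding genes between them in RefSeq's gene order. The median difference over the 636 tested probe sets of this chromosome was 0.0023. Of these, 3 were higher and 9 lower past the threshold, 1.89% in either direction, against 0.648% of all tested probe sets. The called probe sets of Riok3, Impact and the neighbours below are part of this count. The 7 genes between them, the 10 before Riok3 and the 10 after Impact were taken as neighbours, of which 21 had a tested probe set, 36 probe sets in all. Of the 36, 0 rose and 3 fell, where 0.274% of all tested probe sets rose and 0.374% fell. The block by array number gave 1 rise and 4 falls, where 3.49% and 4.39% of all tested probe sets rose and fell. The groups did not overlap at 12 of the 36, against 18.1% of all tested probe sets, and the median was -0.04, against 0.01 over all.

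The neighbours that fell were Gata6, a transcription factor gene of primitive endoderm, Ttc39c, which encodes a tetratricopeptide repeat protein, and Esco1, a cohesin acetyltransferase gene. Gata6 went from 7.82 ± 0.16 to 6.19 ± 0.44, a difference of -1.63 ± 0.26 (SE; limma adjusted p = 0.0372, and 0.00134 with the block). Ttc39c, which lies between Riok3 and Impact, went from 8.08 to 6.73, a difference of -1.34 ± 0.20 (limma adjusted p = 0.0293, and 0.00149 with the block). Esco1 1424324_at fell by 1.17 ± 0.15 (limma adjusted p = 0.0183, and 9.95e-05 with the block), while Esco1 1424325_at, of the same source sequence, differed by 0.17. These calls did not hold in most fits with an array left out: Esco1 and Ttc39c kept theirs only without knockout replicate 1, and Gata6 only without knockout replicate 1 or 2, with adjusted p elsewhere up to 0.227. The other genes between Riok3 and Impact gave smaller differences. The lysosomal cholesterol transporter gene Npc1 differed by -0.31, the laminin gene Lama3 by -0.62 and the sterol binding protein gene Osbpl1a by 0.03 and -0.07, none past the threshold. Of the neighbours with several tested probe sets, Esco1 had the widest spread, 1.34.

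Pclaf lies on chromosome 9, the chromosome of Setd2, with 371 other named coding genes between them. The 1246 tested probe sets of that chromosome had a median difference of -0.02. Of the 20 nearest named coding genes, 15 had a tested probe set, 29 in all. None of the 29 passed limma's threshold, where 0.274% of all tested probe sets rose and 0.374% fell. With the block 0 passed as well, where 3.49% rose and 4.39% fell. An unadjusted p under 0.05 was found at 4 of them, against 11.7% of all tested probe sets, and their median was 0.01. The differences ran from -0.50 to 0.78. The brightest were Ppib, a secretory pathway cyclophilin gene, at -0.14 and -0.05 on its probe sets, and Ciao2a, an iron-sulphur assembly gene, at 0.07. Trip4 and Csnk1g1, listed next to Pclaf on either side, differed by -0.35 to 0.36 over 4 probe sets and by 0.30 and 0.54. None of them came near the difference of Pclaf 1419152_at.

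**Figure D4:**
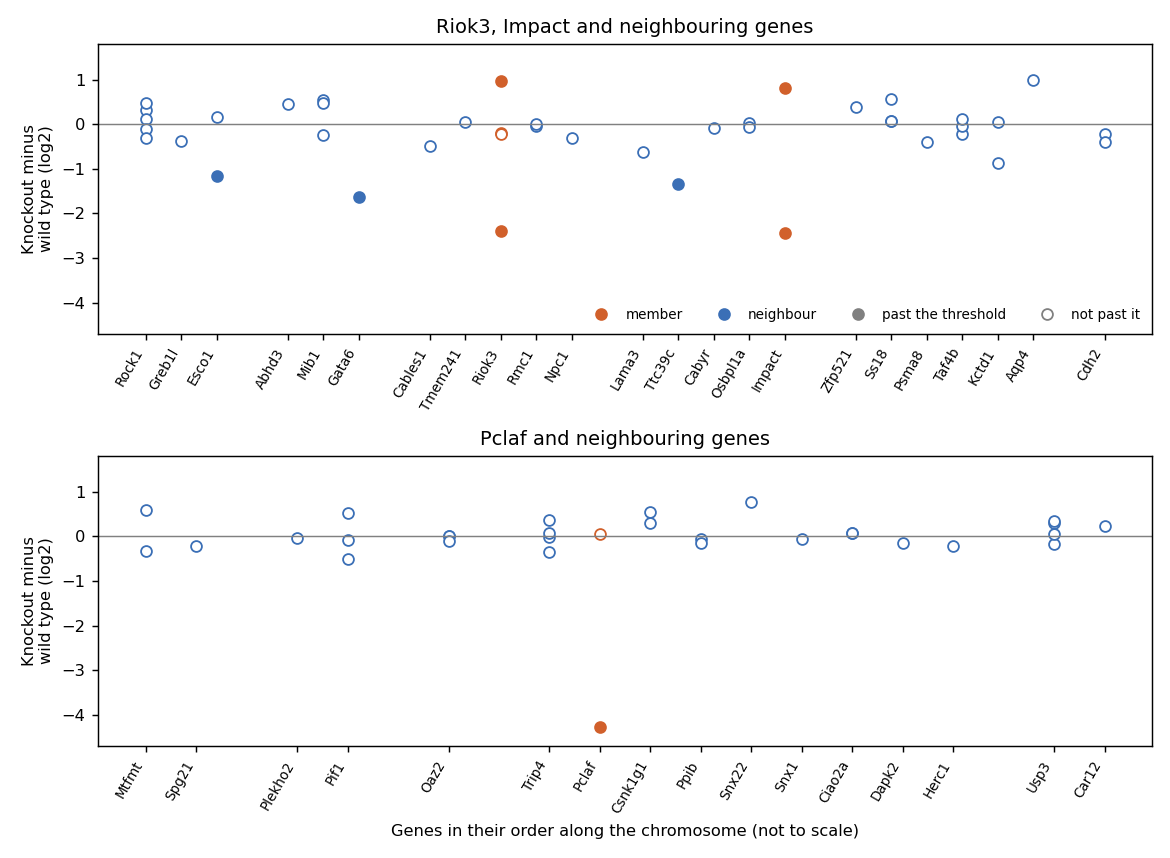
Knockout minus wild type difference (log2) of each tested probe set of the members and of their neighbours, in gene order along the chromosome and not to scale, with filled points past limma's threshold. Near Riok3 and Impact the filled neighbours are Esco1, Gata6 and Ttc39c, all below 0, and near Pclaf no neighbour is filled.

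The genes whose profile over the 6 arrays was most like each member probe set were found by the root mean square distance between profiles centred on their own mean, over 6 arrays. This measure reads the same arrays as the choice of members and is a description. Nearest to Pclaf 1419152_at was Ccnb1ip1, a ubiquitin ligase gene known from meiosis, at a distance of 0.43, then Mpi, the mannose phosphate isomerase gene, at 0.71 and Trim34a at 0.83. Nearest to Impact 1446750_at were Srgn, a proteoglycan gene, at 0.22, Trim34a at 0.37 and the imprinted noncoding RNA Rian at 0.40. Rian was nearest to Riok3 1460670_at, at 0.28, before B3galt6 at 0.30 and Trim34a at 0.32. For the probe sets with a higher signal, Camk2d was nearest to Impact 1415911_at at 0.07, and Nckap1l to Riok3 1422650_a_at at 0.08. The centred profile of Pclaf 1419153_at was followed most closely by Haus5 at 0.03, and that of Riok3 1415747_s_at by Pitpnc1 at 0.02. The members themselves were left out of the search.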

How the data were processed

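The deposited table held log2 values, which the authors made with MAS5, per the submitters' processing notes; its version is not given in the sources used here. That the scale is log2 was settled from the values, whose linear mean, trimmed by 2% at both ends, ran from 496.9 to 497.2 over the 6 arrays. No further normalization was applied. No detection calls were used, and so no bound against background was derived. Depth in reads does not apply to arrays, and their number limits the precision. Probe sets were named from the platform annotation, updated through gene identifiers against RefSeq (GRCm38.p6), used only for names, transcript numbers and gene order; 34945 probe sets named 1 gene, 932 several, and 9160 are unnamed here. Neighbours were coding genes without Gm, LOC or Rik names.

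Probe sets with a mean below the 40th percentile (5.27) were left out. The other 27022 were fitted with limma 3.58.1 in R 4.3.3 (lmFit, eBayes with intensity trend, two-sided, Benjamini-Hochberg over all 27022, threshold 0.05); the 2 dim member probe sets have their SE from a fit without the filter. An exact permutation of 3 against 3 arrays cannot go below p = 0.10. The fit was tested on simulated data. The replicate numbers pair the arrays by the bound used (deviations from the genotype means correlated at r = 0.50, 0.23 and 0.24 for numbers 1, 2 and 3, against 0.1). Unlike numbers passed it too: number 2 of wild type correlated as strongly with number 3 of knockout (0.23), and number 3 of wild type with number 2 of knockout at 0.17. These values therefore do not clearly tell numbers 2 and 3 apart, and the labels say nothing of what a number shares. The fit without the block is the main one. The members and lists were chosen with earlier results of these data known. Named were all member probe sets, Setd2, list members and neighbours past the threshold (up to 6, otherwise the 3 brightest), Pcna, Eif2ak4, Gcn1, Riok1, Riok2, the 3 nearest profiles and genes called in both directions; others are marked as seen first. Alternatives were the block, other filters, quantile normalization, median centring, a floor, no trend, each array left out, and, added after seeing the data, both arrays numbered 1 left out and genes of chromosomes 8 and Y left out.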

Additional observations from a re-analysis of the deposited data

How the results depend on the processing

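The member probe sets mostly kept their signs: of the 148 values under the 15 alternatives, 142 had the sign of the main value. The others were values of Pclaf 1419153_at and of the dim probe sets 1431273_at and 1446751_s_at. Some values moved by more than the wild type SD. Riok3 1460670_at went from -2.39 to as little as -1.97, where the wild type SD was 0.08 and the knockout SD 0.73. With single arrays left out, Pclaf 1419152_at ran from -4.36 to -4.19, Impact 1446750_at from -2.78 to -2.15 and 1415911_at from 0.69 to 0.90, and Riok3 1460670_at from -2.62 to -1.97 and 1422650_a_at from 0.88 to 1.07. Their calls held less well. Pclaf 1419152_at was past the threshold under all 15 alternatives, Impact 1415911_at under 8 of 15 and 1446750_at under 9 of the 14 that tested it, and Riok3 1422650_a_at under 10 and 1460670_at under 9 of 15. Calls in both directions were found in 1 gene with the filter at the 60th percentile, which left Impact 1 tested probe set, and in 1 with median centring, in 0 without the intensity trend, and in 0 to 3 genes with single arrays left out (3 without knockout replicate 1, 0 without any other array).

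With the replicate block 2129 probe sets were called, 944 higher and 1185 lower, and 13 genes had calls in both directions. The block gave 10 calls in the replication fork list, 5 in the Gcn2 list, 2 in the 40S list, 5 among the neighbours of Impact and Riok3 and 3 among feeder markers, and changed no call of a member probe set. Without the trend 57 were called, 30 higher and 27 lower, 84.2% of them _at probe sets, and 0 neighbours of Impact and Riok3. Of all 27022 tested probe sets, 20085 are of the _at type. Without array 1 of either genotype (an alternative chosen after seeing the data) there were 2025 calls, 914 higher and 1111 lower, 13 genes called in both directions, and 8, 4 and 3 calls in the replication fork, Gcn2 and 40S lists, 1 and 6 among the neighbours of Pclaf and of Impact and Riok3, and 2 among feeder markers; Riok2 turned to 0.12. Without the genes of chromosomes 8 and Y, also chosen then, 64 were lower, and the replication fork median was -0.048, against -0.14 with median centring. Quantile normalization gave 1 call in the Gcn2 list. The cause of these shifts was not tested.

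With single arrays left out, 33 to 437 probe sets were called, 17 to 160 higher and 14 to 277 lower. The replication fork list had 0 to 1 calls and a median of -0.11 to -0.047, the Gcn2 list 0 to 1 calls and a median of -0.084 to 0.013, and the neighbours of Impact and Riok3 0 to 3 calls. Values near 0 changed sign there: Eif2ak4 ran from -0.027 to 0.37, Riok2 from -0.15 to 0.19, Clns1a from -0.070 to 0.0017 and Bms1 from -0.078 to 0.011. Signals near or below the filter value limit what Impact 1446750_at and the 2 untested probe sets can show.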
